A study of Mus musculus with 6 samples.

Results

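The Wnt ligands, their Frizzled receptors and the secreted antagonists Sfrp and Dkk were examined in the cerebral cortex of mouse embryos at embryonic day 18. Members were the protein-coding genes whose GENCODE M21 symbol is Wnt, Fzd, Sfrp or Dkk followed by a number (with a or b allowed for Wnt), and the rule uses no expression value, although the family was picked with earlier results of these data known. This gave 37 genes of the 55401 in the count table: 19 Wnt, 10 Fzd, 4 Sfrp and 4 Dkk genes. Bulk RNA sequencing covered 3 wild-type libraries and 3 libraries of the genotype Csmd3-/-, all from C57BL/6 embryos that carried no other stated allele and were obtained by mating heterozygous parents. The labels name 3 numbered replicates per genotype without saying that each came from its own embryo, so p-values measure the spread between these libraries. Which part of Csmd3 was removed is not stated in the labels.

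Wnt proteins are lipid-modified secreted signals. Porcn attaches the lipid, Wls carries the ligand to the cell surface, and Frizzled receptors bind it through a cysteine-rich domain. With the co-receptors Lrp5 or Lrp6 a Frizzled stabilises beta-catenin, which acts with Tcf and Lef factors in the nucleus. Other branches orient cells in a tissue plane or signal through Ror, Ryk and calcium. Sfrp proteins carry a Frizzled-like domain and bind Wnts outside the cell, whereas Dkk1, Dkk2 and Dkk4 bind Lrp5 and Lrp6. In the forebrain Wnt signals from the medial edge of the cortex pattern the hippocampus, and Wnt7a and Wnt7b from neural cells drive the growth of brain vessels.

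Each library held between 54244288 and 68269607 deposited counts. Csmd3 itself was lower but not absent: its mean was 15 ± 1.72 CPM (counts scaled to library size, SD, n = 3) in wild type, against 9.98 ± 0.294 CPM for the mutants. The log2 fold change (knockout minus wild type, here and throughout) was -0.59 with an SE of 0.13, and edgeR gave an adjusted p of 0.0233. The counts cover the whole gene, so reads from any exons that remain would enter that value, which was not tested. The value checks the genotype labels only weakly: omitting wild-type library 1, or any 1 of the knockouts, removed the call (adjusted p up to 0.101). Defining genes of cortex (Emx1, Emx2, Lhx2, Tbr1, Neurod6 and Bcl11b) were present in every library, with a summed level of 1669 to 1773 CPM in wild type and 1572 to 1898 CPM in knockout. The sum hides a low value of Tbr1 in knockout library 3. Tbr1 was at 354.6, 351.1 and 350.3 CPM in wild type and at 347.5, 340.9 and 139.1 CPM in knockout libraries 1, 2 and 3. Knockout library 3 stood apart in the choroid plexus gene Ttr, with 25057 counts against 131 and 2262 in knockout libraries 1 and 2 and 4, 0 and 0 in wild type.

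Wnt4, Wnt6, Fzd2, Fzd3, Fzd6, Fzd7, Fzd10 and Sfrp1 rose in the knockout cortex and Dkk3 fell. The largest changes were in genes that were low in wild type (Wnt6, Fzd10 and Wnt4), while the receptors Fzd2, Fzd3, Fzd6 and Fzd7 and the antagonist Sfrp1 rose by 0.33 to 0.64 on the log2 scale. The 2 most abundant ligands, Wnt7b and Wnt7a, did not pass the test. Of the 37 members, 25 had enough counts to be tested, so 9 of 25 changed, beside 7.74% of all 19844 tested genes. Of these 8 rose, beside 5.21% of all tested genes, and 1 fell, beside 2.53%. Groups did not overlap for 13 members, beside 29.1% of all tested genes: 10 were higher, beside 15.6%, and 3 were lower, beside 13.5%. The median log2 fold change was 0.26 over the 25 tested members and 0.00 over all tested genes. Wnt6 passed the count filter through the knockout libraries alone, so its presence among the tested members is not independent of its direction.

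**Figure D1:**
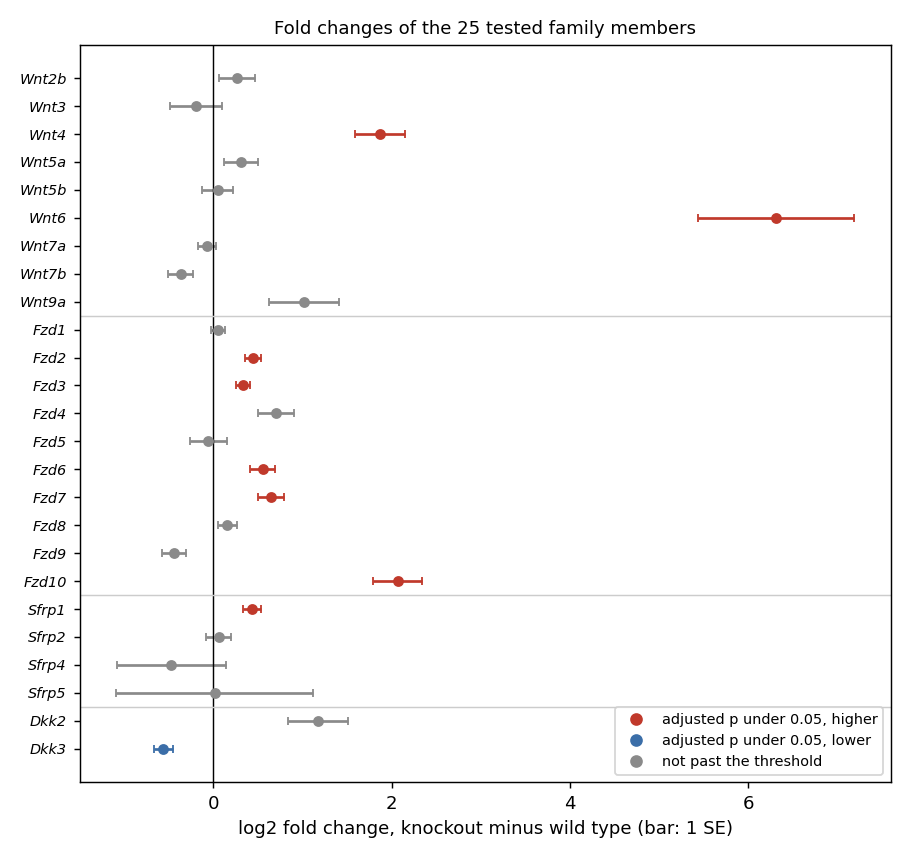
Log2 fold change (knockout minus wild type, x axis) of the 25 tested members, grouped by family, with bars of 1 SE. Wnt6, Fzd10 and Wnt4 lie farthest to the right, at 6.31, 2.07 and 1.86, and Dkk3 is the single called member to the left of 0; the position of Wnt6 depends on a constant added to its near-0 wild-type counts.

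The 9 calls were not equally firm. Those of Wnt4, Wnt6 and Fzd10 were kept with any 1 library left out. Fzd2, Fzd3, Fzd6 and Sfrp1 lost their calls without any 1 library except wild-type 3, with highest adjusted p-values of 0.0866, 0.119, 0.153 and 0.131. Fzd7 lost its call when wild-type library 1, wild-type library 2, knockout library 2 or knockout library 3 was omitted (adjusted p up to 0.0962), and Dkk3 when wild-type library 1, knockout library 2 or knockout library 3 was (up to 0.0675). Omitting wild-type library 1, wild-type library 2 or knockout library 3 left 3 members that rose. Omitting knockout library 1 left 4, and omitting knockout library 2 gave 4 with Dkk2, which had no call in the full fit. With knockout libraries 2 and 3, the 2 with the most Ttr counts, left out together, 1 member rose, Fzd10 (adjusted p = 0.0373), in a fit that takes the lone knockout library to vary like the wild-type libraries and in which 262 genes in all rose, against 1033. The log2 fold changes in that fit were 1.79 for Wnt4, 6.72 for Wnt6, 0.50 for Fzd2, 0.28 for Fzd3, 0.50 for Fzd6, 0.45 for Fzd7, 0.46 for Sfrp1 and -0.42 for Dkk3.

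Markers of other cell types were read as lists, and these lists differed in direction. Beside the counts that follow, 5.21% of all tested genes rose and 2.53% fell. Of 15 markers of meningeal fibroblasts and mural cells 14 rose, and their summed level was 137.7 to 149.0 CPM in wild type and 740.3 to 923.8 CPM in knockout. Knockout library 1, the one kept when knockout libraries 2 and 3 were left out, had the highest of these sums. It stood at 923.8 CPM, against 740.3 and 869.5 CPM in knockout libraries 2 and 3. For microglia and macrophages 7 of 10 rose (23.2 to 25.9 against 98.2 to 122 CPM), and for endothelium 6 of 10 (306.6 to 336.7 against 465.0 to 560.5 CPM). Of 8 choroid plexus markers 5 could be tested and 1 of these, Aqp1, rose (0.776 to 1.42 against 9.55 to 487 CPM); Folr1 was at 0 in all wild-type libraries and in knockout library 1, where Kcne2 and Otx2 were at 0 as well. For the cortical hem, a Wnt source at the medial cortical edge, 2 of 6 tested markers rose (44.7 to 53.3 against 88.3 to 104 CPM); they were Msx1 and Bmp7, while Lmx1a, a defining gene of the hem, had 20, 12 and 11 counts in wild type and 21, 12 and 57 in knockout. Of 5 intermediate progenitor markers 3 rose (265.7 to 353.5 against 409.7 to 482.2 CPM). Of 9 radial glia markers 2 rose, but their summed levels overlapped (1074 to 1217 against 1059 to 1227 CPM) and the median log2 fold change was 0.063. Among 7 interneuron markers 0 rose and 2 fell (361.8 to 453.6 against 295.4 to 362.1 CPM). Among 5 oligodendrocyte lineage markers 1 rose and 2 fell (90.5 to 122.9 against 82.0 to 99.4 CPM). Pdgfra rose from a mean of 24.1 to 40.9 CPM, while Olig1 fell from 43.8 to 16.6 CPM and Olig2 from 24.5 to 10.2 CPM. Sox10 and Cspg4 did not pass, and their groups overlapped. For 9 cortical projection neuron markers, and for 7 of ventral telencephalon and striatum, 0 rose and 1 fell. No erythroid marker and no dentate and hippocampus marker passed. In bulk tissue more cells of a type and more RNA per cell cannot be told apart, and the part of any of these cell types in the changes of Wnt family genes was not tested.

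**Figure D2:**
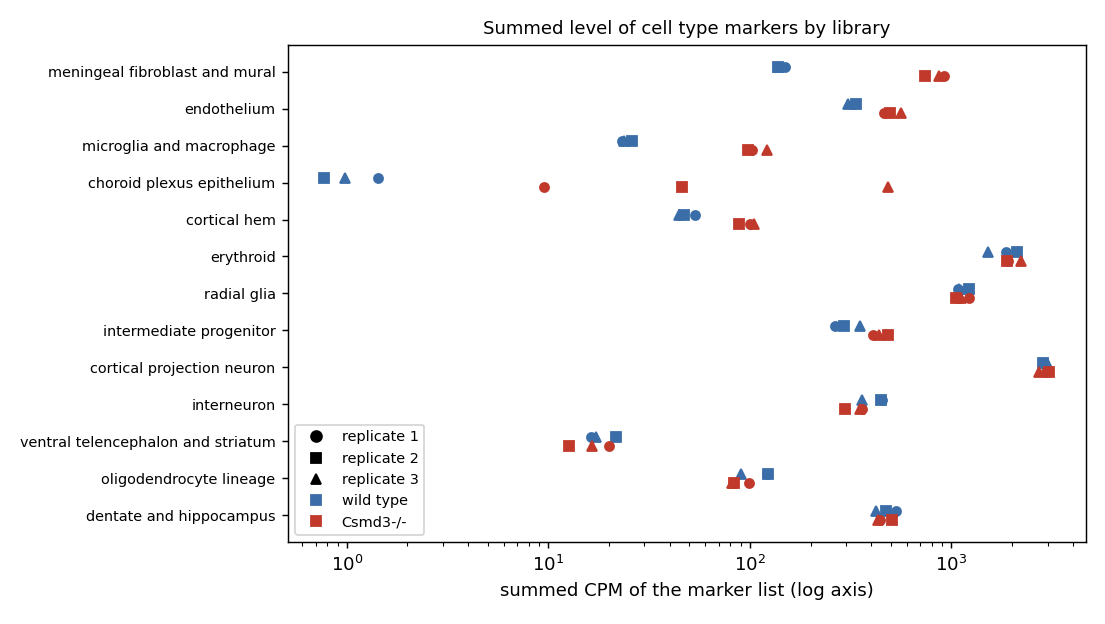
Summed CPM of each cell type marker list (x axis, log scale) in each library, wild type in blue and knockout in red, with symbols for the replicate number. The meningeal list lies at 137.7 to 149.0 CPM in wild type and 740.3 to 923.8 CPM in knockout, and the choroid plexus list spreads from 9.55 to 487 CPM within knockout.

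Among the ligands, Wnt6 showed the largest difference. Wnt6 (ENSMUSG00000033227.7, chromosome 1, 74771892 to 74785322, plus strand, mm10) encodes a ligand best known from epithelia and kidney development. It had 8, 0 and 0 deposited counts in wild-type libraries 1, 2 and 3 and 342, 173 and 199 in the knockout libraries, or 4.98, 2.73 and 3.59 CPM. All 3 knockout libraries were thus above all wild-type libraries, where the gene was close to absent. At about 4 deposited counts per sequenced fragment (see the processing notes), wild type held 2 fragments and knockout 178, a fold of 83.3 with an exact 95% interval (Clopper-Pearson) of 22.7 to 692 that covers counting error only. The fitted log2 fold change was 6.31 (SE 0.87, adjusted p = 0.00795), and it was 10.83 without wild-type library 1, the library with the 8 counts. Since the wild-type libraries that remain had 0 counts, the value of 10.83 depends on a constant added to the counts and does not measure a fold.

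Wnt4 (chromosome 4, 137277489 to 137299726, plus strand), a ligand known for its part in the development of kidney and female reproductive organs, was low but clearly present in wild type. It stood at 2.31, 2.14 and 1.08 CPM in wild type and at 6.32, 6.04 and 7.81 CPM in knockout. The lowest knockout library was above the highest wild-type library. Its log2 fold change was 1.86 (SE 0.28, adjusted p = 0.00455) and stayed between 1.59 and 2.05 with any 1 library left out.

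Sequence upstream of genes that rose is shown for Wnt6, Wnt4 and Fzd7, since these started from near 0, low and moderate levels and have an upstream window in the RefSeq table (build GRCm38.p6). Each is on the plus strand and ends at the base before the RefSeq transcription start (Wnt6 and Fzd7) or before the first base of the GENCODE gene (Wnt4). The positions are chr1:74771642-74771891 for Wnt6, chr4:137277385-137277488 for Wnt4 and chr1:59481897-59482146 for Fzd7. Capitals mark a match to the core sequence bound by Tcf and Lef factors, searched on both strands as CTTTG followed by AA, AT, TA or TT.
Wnt6: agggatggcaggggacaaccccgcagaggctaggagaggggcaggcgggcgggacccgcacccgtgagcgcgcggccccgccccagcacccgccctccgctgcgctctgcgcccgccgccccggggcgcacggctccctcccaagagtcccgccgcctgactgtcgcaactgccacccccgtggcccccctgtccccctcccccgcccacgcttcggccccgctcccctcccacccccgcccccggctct
Wnt4: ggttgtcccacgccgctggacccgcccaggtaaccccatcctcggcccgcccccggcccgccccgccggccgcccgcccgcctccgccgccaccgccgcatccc
Fzd7: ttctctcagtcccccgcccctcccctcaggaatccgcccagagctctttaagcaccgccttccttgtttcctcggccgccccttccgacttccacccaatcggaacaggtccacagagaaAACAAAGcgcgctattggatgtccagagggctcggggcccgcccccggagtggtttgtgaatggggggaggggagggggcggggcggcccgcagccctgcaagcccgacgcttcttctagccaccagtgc

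The printed stretches are rich in G and C, at 79.6% for Wnt6, 83.7% for Wnt4 and 65.2% for Fzd7. The Fzd7 stretch held 1 match, AACAAAG on the printed strand, which begins 130 bases before the start. The Wnt6 and Wnt4 stretches held no match, which says only that these letters are not in those windows. Windows of 250 upstream bases were found for 25 of the 37 members (28 windows), and 4 of the 28 held a match (14.3%), beside 4874 of all 32851 windows of the same length (14.8%). The ratio of observed to expected CpG was 0.758 at the median of the members' windows and 0.374 at the median of all windows, which include those of noncoding genes. It was 0.765 for windows of tested members and 0.707 for those of members with too few counts to test.

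The ligand with the most transcripts was Wnt7b, which with Wnt7a forms the pair that signals to brain vessels. Wnt7b (chromosome 15, 85535437 to 85582473, minus strand) stood at 321.8, 336.5 and 277.3 CPM in wild type and 269.5, 190.5 and 265.5 CPM in knockout. All knockout libraries were below all wild-type libraries, with knockout library 2 the lowest, but the difference did not pass (log2 fold change -0.37, SE 0.14, adjusted p = 0.175). An annotated antisense gene, AU022754, covers 324 of its 4898 exon bases and had 86 to 283 counts beside 12055 to 19528 for Wnt7b. The handling of read strand is not stated, so reads in shared exons cannot be assigned to either gene; this also holds for Wnt5a, Sfrp2 and Fzd5, whose antisense partners Gm2670, Gm26771 and Gm38058 had at most 56 counts in any library. Wnt7a stood at 40.4, 38.3 and 37.7 CPM in wild type and 38.4, 32.0 and 40.1 CPM in knockout, and these ranges overlapped (log2 fold change -0.08, SE 0.10, adjusted p = 0.733).

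The other tested ligands were Wnt2b, Wnt3, Wnt5a, Wnt5b and Wnt9a, and none passed. Wnt5a, the ligand of the Ror receptors, was at 10.9, 7.72 and 8.73 CPM in wild type and 13.8, 8.99 and 11.1 CPM in knockout, with overlapping groups (log2 fold change 0.31, SE 0.19, adjusted p = 0.391). Wnt9a had the largest difference of these, from 1.64, 0.81 and 0.663 CPM to 2.08, 1.49 and 2.74 CPM (log2 fold change 1.01, SE 0.39, adjusted p = 0.164). Its groups overlapped as well. Wnt2b and Wnt3 lay between 1.41 and 3.75 CPM in all libraries and Wnt5b between 3.99 and 5.08 CPM. No ligand fell in edgeR's quasi-likelihood test or in DESeq2, and 1 ligand, Wnt7b, was lower at an unadjusted p under 0.05.

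Of the 19 Wnt genes 10 had too few counts to test. Wnt2, Wnt3a, Wnt8a and Wnt10b had no count in any library, although Wnt3a is a classical product of the cortical hem at earlier stages. Wnt16 had 0, 8 and 0 counts in wild type and 76, 8 and 24 in knockout, so that knockout library 2 did not exceed the highest wild-type library. Wnt11 had 0 counts in wild type and 14, 8 and 0 in knockout. Wnt8b, another gene of the medial cortex, had 21, 0 and 0 counts in wild type and 0, 4 and 8 in knockout. Wnt1, Wnt9b and Wnt10a had at most 8 counts in any library.

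Several Wnt genes lie side by side in the genome, and in 3 of the 4 pairs the neighbours differed in level. Wnt10a begins 6.2 kb beyond the end of Wnt6 on the same strand. It had 8, 0 and 0 counts in wild type and none in knockout, where Wnt6 had 173 to 342. Wnt9a lies 16.2 kb from Wnt3a on the opposite strand, and it had 38 to 152 counts per library where Wnt3a had none. Wnt3, at 78 to 163 counts, lies 24.3 kb from Wnt9b, which had 0 to 8. The remaining pair, Wnt10b and Wnt1 at 11.7 kb, was near 0 on either side.

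All 10 Frizzled receptor genes could be tested, and 5 rose, beside 5.21% of all tested genes. None fell in edgeR, although 1, Fzd9, was lower at an unadjusted p under 0.05 and was called by DESeq2 (adjusted p = 0.0291). The largest rise was in Fzd10 (chromosome 5, 128600844 to 128604093, plus strand), a receptor known from the dorsal neural tube and limb. It stood at 0.838, 0.586 and 0.89 CPM in wild type and 3.60, 2.61 and 3.52 CPM in knockout. The lowest knockout library was well above the highest wild-type library, with a log2 fold change of 2.07 (SE 0.27, adjusted p = 0.00228).

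**Figure D3:**
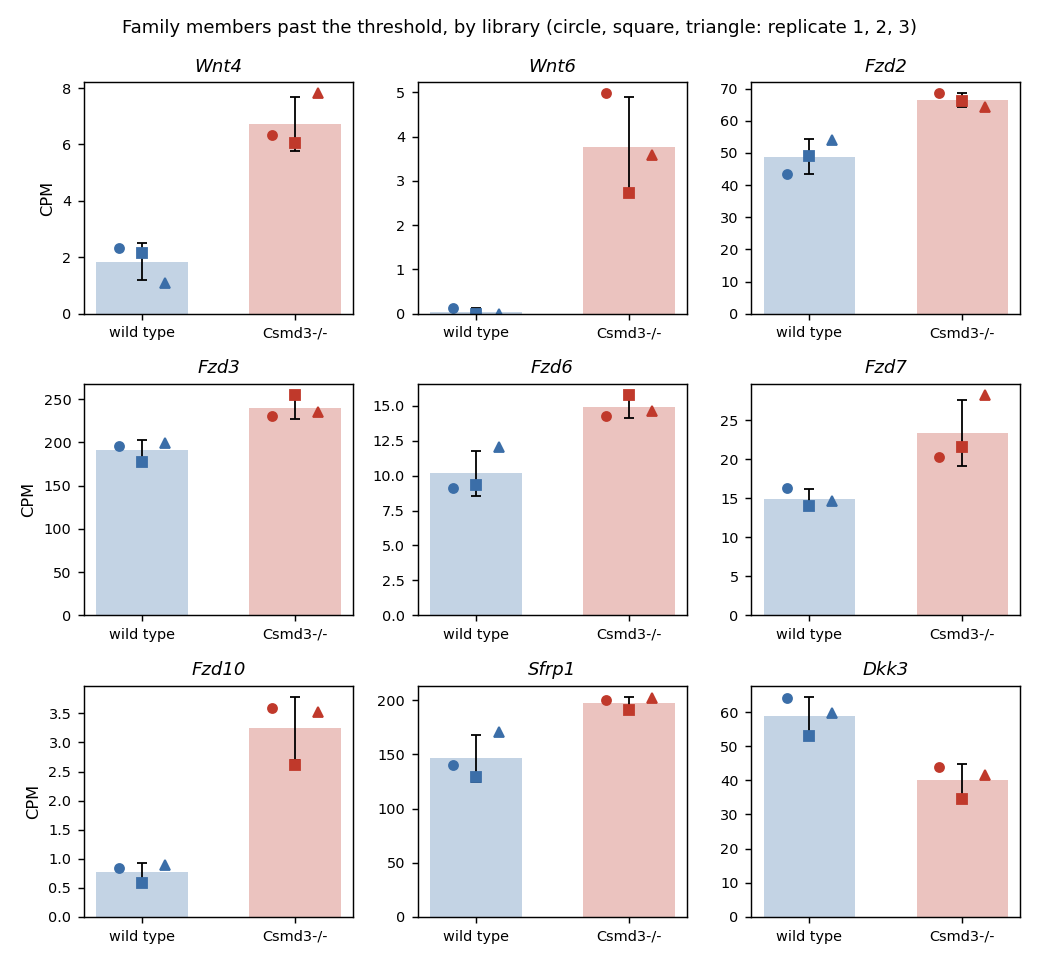
CPM (y axis, from 0) of the 9 members past the threshold in each library, with bars at the group mean and error bars of 1 SD (n = 3). Wild-type and knockout libraries are separated in each panel; Wnt6 is near 0 in wild type and at 2.73 to 4.98 CPM in knockout.

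Fzd1, Fzd2 and Fzd7 form a subfamily of closely related receptors, each encoded by 1 exon, and they differed in their values. Fzd7, the least abundant of the group, rose from 16.3, 13.99 and 14.6 CPM to 20.3, 21.6 and 28.2 CPM (log2 fold change 0.64, SE 0.14, adjusted p = 0.0253), with knockout library 3 the highest. Fzd2 rose from 43.4, 49.1 and 54.1 CPM to 68.6, 66.3 and 64.3 CPM (0.44, SE 0.09, adjusted p = 0.0202). Fzd1 was at 84.1, 73.1 and 75.7 CPM in wild type and 78.3, 83.9 and 79.0 CPM in knockout, and its groups overlapped (0.05, SE 0.08, adjusted p = 0.775). Whether the fold changes of these genes differ from each other was not tested.

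Fzd3 and Fzd6 form another subfamily, known for planar polarity. Fzd3 guides forebrain axon tracts, and Fzd6 orients hair follicles. Fzd3 rose from 195.7, 177.2 and 199.7 CPM to 230.3, 255.0 and 235.2 CPM, the smallest fold change among the calls (0.33, SE 0.07, adjusted p = 0.0258). Fzd6 rose from 9.13, 9.34 and 12.03 CPM to 14.3, 15.8 and 14.7 CPM (0.55, SE 0.14, adjusted p = 0.0443). Wild-type library 3 was the highest of its group in each of them, and it was also the single library whose omission kept their calls. Fzd6 lies 8.5 Mb from Csmd3 on chromosome 15, and 152 of its 4818 exon bases are shared with an antisense gene, Gm26704, that had 0 to 12 counts.

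Of the remaining receptors, Fzd4, which also binds norrin and serves brain vessels, was at 7.39, 6.81 and 7.14 CPM in wild type and 9.16, 9.89 and 15.6 CPM in knockout. The groups did not overlap and knockout library 3 was the highest, yet the difference did not pass in edgeR (0.70, SE 0.20, adjusted p = 0.0694) and passed in DESeq2 (adjusted p = 0.0179). Fzd9 was lower in every knockout library, at 10.2, 10.1 and 12.7 CPM against 15.03, 15.8 and 13.96 CPM (log2 fold change -0.44, SE 0.13, adjusted p = 0.0829). Fzd5 and Fzd8, receptors of one subfamily, had log2 fold changes of -0.06 (SE 0.21) and 0.15 (SE 0.11) and overlapping groups.

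Among the Sfrp antagonists, 1 of 4 rose, beside 5.21% of all tested genes. Sfrp1 (chromosome 8, 23411502 to 23449632, plus strand), a secreted product of cortical progenitors, went from 140.4, 128.9 and 170.8 CPM to 200.1, 191.2 and 202.0 CPM. The knockout libraries lay close together, whereas wild-type library 3 was high in its group (log2 fold change 0.43, SE 0.10, adjusted p = 0.0304). Sfrp2, a close relative and the next in level, was at 18.2, 24.0 and 25.2 CPM in wild type and 25.6, 21.96 and 22.6 CPM in knockout, with overlapping groups (0.06, SE 0.14, adjusted p = 0.857). Sfrp4 and Sfrp5 were below 1.6 CPM in every library, and their SEs of 0.61 and 1.10 leave a wide range of changes possible.

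Of the 2 tested Dkk genes 1 fell, beside 2.53% of all tested genes. Dkk3 (chromosome 7, 112116017 to 112159057, minus strand), a divergent member that does not act on Lrp co-receptors in the manner of Dkk1, fell from 64.0, 52.9 and 59.9 CPM to 43.9, 34.6 and 41.4 CPM. All knockout libraries were below all wild-type libraries (log2 fold change -0.56, SE 0.11, adjusted p = 0.0155). Dkk2, a binder of Lrp5 and Lrp6, was at 0.72, 0.758 and 0.751 CPM in wild type and 1.78, 1.08 and 2.20 CPM in knockout. The groups did not overlap, but the difference did not pass (1.18, SE 0.34, adjusted p = 0.0675), except in DESeq2 (adjusted p = 0.0369) and without knockout library 2 (0.0497). Dkk1 had 8, 0 and 0 counts in wild type and none in knockout, and Dkk4 had none in any library.

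Levels per kb of exon compare members with each other. Within the ligands, Wnt7b was at 63.7 ± 6.30 CPM per kb in wild type and 49.4 ± 9.09 in knockout, and Wnt7a was next at 12.2 ± 0.441 and 11.6 ± 1.35 (SD, n = 3). Every other ligand averaged under 2 CPM per kb in either group. Wnt7b made up 78.4%, 80.0% and 77.2% of the summed ligand level in wild type, and 71.7%, 68.6% and 71.5% in knockout, so its share was lower in each of them. Wnt6 was the lowest tested ligand in wild type, at 0.0204 ± 0.0353 CPM per kb, and in knockout it stood at 1.72 ± 0.517, beside Wnt5b at 1.72 ± 0.0518 and Wnt4 at 1.60 ± 0.227.

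Frizzled transcripts were spread more evenly. Fzd1, Fzd3 and Fzd2 led, at 18.5 ± 1.36, 14.9 ± 0.938 and 13.3 ± 1.47 CPM per kb in wild type and 19.2 ± 0.718, 18.8 ± 1.02 and 18.1 ± 0.588 in knockout. In knockout the ranges of mean ± SD of these 3 genes overlapped, and whether their levels differ was not tested. Summed over the 10 receptors, the level was 67.1 ± 1.73 CPM per kb in wild type and 79.7 ± 1.57 in knockout, and no knockout library overlapped wild type. Sfrp1 held 75.5% ± 3.46 of the summed Sfrp level in wild type and 80.2% ± 1.28 in knockout. Dkk3 held 98.8% ± 0.0945 of the Dkk level in wild type and 96.4% ± 0.93 in knockout.

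**Figure D4:**
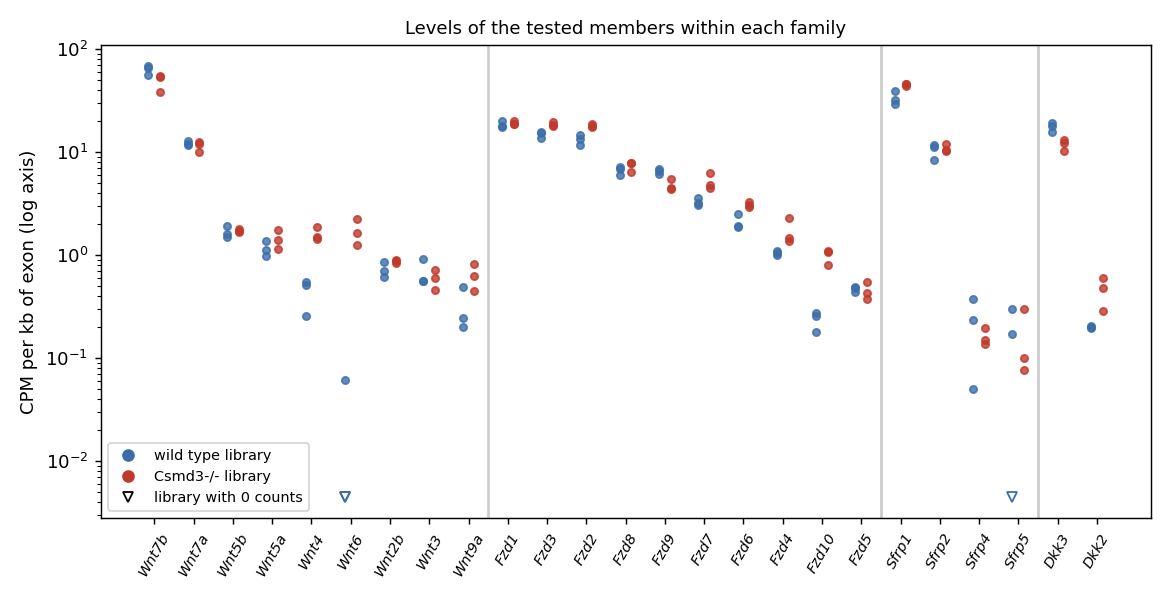
Level of each tested member per kb of exon (y axis, CPM per kb, log scale), 1 point per library, wild type in blue and knockout in red, ordered by mean level within each family. Wnt7b at about 49.4 to 63.7 CPM per kb on average exceeds all other ligands, and open triangles mark libraries with 0 counts of Wnt6 or Sfrp5.

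Other genes of the pathway were read from 8 lists of 88 genes that contain no family member. Of 84 tested, 22 rose (beside 5.21% of all tested genes) and 2 fell (beside 2.53%), with a median log2 fold change of 0.11. The 2 that fell were Rspo2 and Myc; Myc, a proto-oncogene and common beta-catenin target, is named after its value was seen. Omitting wild-type library 1 or knockout library 2 left 14 that rose, and omitting wild-type library 2, knockout library 1 or knockout library 3 left 11. With knockout libraries 2 and 3 left out together, 5 rose and 1 fell.

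In ligand secretion, Wls rose from 8.07, 7.01 and 8.22 CPM to 21.3, 24.5 and 22.6 CPM (log2 fold change 1.55, SE 0.12, adjusted p = 9.70e-05). Each knockout library was more than 2-fold above each wild-type library. The acyltransferase gene Porcn was at 42.3 to 43.8 CPM in wild type and 43.3 to 47.8 CPM in knockout and did not pass (0.06, SE 0.08, adjusted p = 0.728). Of 11 co-receptors and other receptors 5 rose, beside 5.21% of all tested genes. Ror1, a receptor tyrosine kinase for Wnt5a, had 0.385, 0.517 and 0.209 CPM in wild type and 4.95, 2.61 and 3.72 CPM in knockout (3.33, SE 0.38, adjusted p = 0.001). Adgra2 (1.74, SE 0.20) and Reck (0.81, SE 0.15), which together let endothelial cells receive Wnt7a and Wnt7b, rose as well. The median log2 fold change was 0.66 over the endothelial markers given above and 4.35 over the meningeal fibroblast and mural markers. The part of any of these cell types in the rise of Adgra2 and Reck was not tested. Ptk7, a planar polarity receptor, rose by less (0.34, SE 0.07), as did Lrp5 (0.32, SE 0.08, adjusted p = 0.0468), a main co-receptor named after its value was seen, and its partner Lrp6 did not pass (0.19, SE 0.08, adjusted p = 0.204). The call of Ptk7 ended when wild-type library 1 or any 1 of the knockouts was omitted (adjusted p up to 0.0654), and that of Reck when wild-type library 1, wild-type library 2 or knockout library 1 was (up to 0.0609). Whether the call of Lrp5, which was close to the threshold, holds with 1 library left out is not given here.

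Genes that tune Frizzled at the surface moved in both directions. Rspo2, a secreted amplifier of Wnt signals, fell from 12, 12.6 and 13.1 CPM to 7.07, 6.38 and 6.40 CPM (log2 fold change -0.92, SE 0.13, adjusted p = 0.0026), with no overlap. Rnf43, which removes Frizzled from the membrane and opposes that effect, rose from low levels (1.75, SE 0.39, adjusted p = 0.0274), a call kept only without knockout library 1 (highest adjusted p = 0.13). Of 13 other extracellular antagonists 4 rose, beside 5.21% of all tested genes. Igfbp4, an insulin-like growth factor binding protein that also blocks Frizzled and Lrp6, went from 65.4, 71.3 and 63.4 CPM to 124.6, 106.3 and 129.2 CPM (0.85, SE 0.09, adjusted p = 0.000654). Apcdd1, a membrane inhibitor, rose by less (0.43, SE 0.10, adjusted p = 0.0253), and its call held only if wild-type library 3 or knockout library 2 was the one omitted (otherwise up to 0.107).

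Shisa3, a protein that holds Frizzled inside the cell, rose from low levels (1.92, SE 0.48, adjusted p = 0.0414), and its call was kept only without knockout library 3 (highest adjusted p = 0.17). It shares 138 exon bases with Atp8a1 on the opposite strand, which had 5400 to 11902 counts. Wif1, a secreted Wnt-binding inhibitor, had no counts in wild type and 15, 18 and 26 counts in knockout. Its observed knockout counts were 4.59-fold above a floor of 12 counts over the wild-type group, with no allowance for counting error in knockout. It met the count filter through the knockout libraries alone, so its call (adjusted p = 0.0248, up to 0.13 with 1 library left out) and its place among the 4 that rose are not independent of its direction.

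Inside the cell, 1 of 18 genes of the beta-catenin destruction complex and dishevelled rose, a share near the 5.21% of all tested genes. It was the feedback inhibitor Nkd1, which went from 14.1, 12.9 and 11.7 CPM to 28.5, 27.5 and 32.5 CPM (log2 fold change 1.19, SE 0.12, adjusted p = 0.000417). Ctnnb1, which encodes beta-catenin, was at 793.8 to 915.1 CPM in wild type and 860.8 to 938.8 CPM in knockout and did not pass (0.06, SE 0.07, adjusted p = 0.723). Of 13 nuclear factors 3 rose, beside the same 5.21%, and they were Tcf and Lef genes: Lef1 (1.49, SE 0.21, adjusted p = 0.00345), Tcf7l1 (1.3, SE 0.18, adjusted p = 0.00252) and Tcf7 (0.82, SE 0.16, adjusted p = 0.0134). Lef1 went from 5.16, 3.95 and 2.85 CPM to 10.01, 11.5 and 12.1 CPM. An antisense gene, Gm43352, shares 1208 of the 8788 exon bases of Lef1 and had 10 to 11 counts in wild type and 83 to 202 in knockout, so without known read strand the 2 cannot be told apart there. The call of Tcf7 ended when wild-type library 2, knockout library 1 or knockout library 3 was omitted (adjusted p up to 0.0675).

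Of 14 tested common targets of beta-catenin 8 rose (beside 5.21% of all tested genes) and 1 fell (beside 2.53%), with a median of 0.56. Some of them are also in the lists above. Sp5, a transcription factor gene induced by Wnt signals in many tissues, rose from 0.57, 0.483 and 0.14 CPM to 1.73, 1.66 and 1.89 CPM (log2 fold change 2.14, SE 0.46, adjusted p = 0.0227). Its call held only if wild-type library 1 or 3 was the one omitted (otherwise up to 0.0891); 2 of 3 wild-type libraries met the count minimum for it. Axin2, the target most often used as a readout, was at 26.3, 27.7 and 27.7 CPM in wild type and 29.5, 31.6 and 39.4 CPM in knockout. All knockout libraries were above wild type, with library 3 the highest, but the difference did not pass (0.30, SE 0.12, adjusted p = 0.175).

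In the planar polarity and calcium branch 4 of 17 rose, beside 5.21% of all tested genes, with a median log2 fold change of 0.124. Celsr1, an atypical cadherin that works with Frizzled in planar polarity, went from 151.7, 143.6 and 167.5 CPM to 215.7, 224.8 and 233.0 CPM (log2 fold change 0.54, SE 0.08, adjusted p = 0.00298). Nfatc4, a transcription factor gene of calcium signalling, rose as well (0.80, SE 0.09, adjusted p = 0.00112). The glypican genes Gpc6 (0.74, SE 0.14) and Gpc4 (0.36, SE 0.09), whose surface proteins bind Wnts, were also higher. Gpc4 kept its call only when wild-type library 3 was omitted (otherwise up to 0.165), and omitting wild-type library 2, knockout library 1 or knockout library 3 ended that of Gpc6 (up to 0.0665).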

How the data were processed

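The authors deposited 1 table of estimated counts per gene, whole numbers that needed no rounding. Per the submitters' processing notes, the tools were StringTie 1.3.4, HISAT2 2.0.5, Trim Galore 0.4.4 and FastQC 0.11.9, with build mm10 and no roles given. Neither the counting program nor its annotation or use of strand is stated there. Low values pile up at multiples of 4 (in knockout library 1, 1233 genes had a count of 4, against 430 at 3 and 278 at 5), so 4 counts were taken as about 1 fragment, and 3 fragments (12 counts) over the wild-type group as the floor. Intervals cover counting error only, and the floor covers only that of the wild-type group.

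Gene names, coordinates (counted from 1) and exon lengths come from GENCODE M21 on the mm10 assembly; 55141 of 55401 rows matched. Genes kept by filterByExpr (19844) were scaled by TMM and compared in edgeR 4.0.16 by its quasi-likelihood test (robust dispersion, R 4.3.3), two-sided, with Benjamini-Hochberg adjustment over all tested genes and a threshold of 0.05. Every adjusted p is from this test unless DESeq2 1.42.0 is named. SEs were derived as log2 fold change over root F, taken as positive. The fit was tested on simulated data. The simulation held no genes of low count and no true changes as small as most of those called here, so it cannot speak for such calls.

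The family, lists and alternatives were chosen with earlier results of these data known. The text gives full values for each called member, the 2 tested members of highest level per kb in each family, up to 4 called genes per pathway list and Axin2, Lef1, Lrp6, Ctnnb1, Wls, Porcn and Csmd3; other members are given more briefly. Fzd4, Fzd9, Dkk2, Wnt9a and Wnt5a were given in full after their values were seen. Alternatives were DESeq2, scaling by RLE or by the upper quartile, no filter or one requiring 1 CPM in 3 libraries, a block for the replicate number, a fit that was not robust, counts divided by 4, thresholds of 0.01 and 0.1, each library left out, and knockout libraries 2 and 3 left out. Some marker genes are not reported here and were left out of their lists.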

Additional observations from a re-analysis of the deposited data

How the results depend on the processing

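Of the family members, 8 rose under RLE or upper-quartile scaling, with counts divided by 4 and with the stricter filter, where 1010 to 1069 genes in all rose. With no filter 9 rose (1101 in all), in a fit that was not robust 7 (912 in all) and in DESeq2 10 (1483 in all). At a threshold of 0.01, 3 rose and 0 fell, while 9 other pathway genes and 418 genes in all rose and 89 fell. At 0.1, 2 members and 918 genes in all fell, and in DESeq2 2 members and 921 genes. With 1 library left out, 3 to 8 members rose and 0 to 1 fell, 11 to 23 other pathway genes rose, and 472 to 1402 genes rose and 137 to 956 fell in all. Without knockout libraries 2 and 3 the counts were 1 and 0 members, 5 and 1 other pathway genes, and 262 and 43 genes. With the replicate number as a block, 4 members rose (Wnt4, Wnt6, Fzd10 and Sfrp1) with 13 other pathway genes and 686 genes in all, and 255 genes fell. Deviations of same-numbered libraries correlated at -0.003 to 0.028, and not every library correlated best with its own number. These values show no pairing by number, but with 3 libraries per group they cannot exclude it. With 1 library left out, the log2 fold change of Wnt7a ran from -0.139 to 0.023 (sign turned without knockout library 2) and that of Sfrp2 from -0.084 to 0.149 (turned without wild-type library 1 or knockout library 1), none of them called. The cause of these shifts was not tested.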
